A study of Mus musculus with 2 samples.

Results

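Natural killer (NK) cells and type 1 innate lymphoid cells (ILC1) were found in the liver by their mRNA, so the members were chosen by measured UMI counts. A cell barcode was counted as a member when it held at least 1000 unique molecular identifiers (UMIs, each marking 1 captured mRNA molecule), at most 25% mitochondrial UMIs and at least 2 UMIs in total of Ncr1, Klrb1c, Klre1 and Eomes. It also had to hold no UMI of Cd3d, Cd3e, Cd3g or Cd79a and fewer than 5 UMIs of C1qa, C1qb and C1qc together, which removed T cells, B cells and macrophages. In all, 106 of 12996 kept barcodes were members. They were split into 30 Eomes-positive cells, with at least 1 Eomes UMI, 26 Cxcr6-positive cells, with no Eomes UMI and at least 1 Cxcr6 UMI, and 50 cells with neither.

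The livers came from mice fed HFCFD (40%), a diet high in fat, cholesterol and fructose, for 2 weeks. One sample was labelled Cebp KO and 1 Cebp WT. In the KO animals the transcription factor gene Cebpa was deleted in hepatocytes by a Cre recombinase under the albumin promoter, so the NK cells and ILC1 were not themselves targeted, and the mice had been crossed back to C57BL/6N. Cells were freed by perfusion and digestion, passed over 35% Percoll, and loaded on 1 capture lane per sample, with up to 6000 cells sought per lane. The deposited matrix joins both libraries and marks each barcode with suffix 1 or suffix 2, and no label ties a suffix to a genotype. Genotypes were therefore not compared, the libraries are given as unassigned, and no test was run, since cells of 1 liver are not replicates.

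NK cells and ILC1 are innate lymphocytes that kill or signal without a rearranged antigen receptor. NK cells circulate, depend on the T-box factor Eomes and carry granules of perforin and granzymes, whereas liver ILC1 stay in the sinusoids and are known by the collagen-binding integrin CD49a (Itga1), CXCR6, CD200R1 and TRAIL (Tnfsf10). In mice many of the receptors that set their activity are lectin-like proteins whose genes lie together in the NK gene complex on chromosome 6. The liver is known as a site where both cell types are abundant side by side.

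The 250 bases before the start of 4 genes are shown, because these genes define the members or separate the subsets: Ncr1 encodes the NKp46 receptor used by the rule, Gzma the granule protease granzyme A, Cxcr6 the chemokine receptor used for the split and Itga1 the CD49a chain. Sequences are from RefSeq on GRCm38.p6, written 5′ to 3′ on the gene's strand. Ncr1 lies at chr7:4337474-4337723 (+ strand), Gzma at chr13:113100982-113101231 (− strand), Cxcr6 at chr9:123806227-123806476 (+ strand) and Itga1 at chr13:115101965-115102214 (− strand), each window given without the transcribed bases. Capitals mark matches, on either strand, to the RUNX letters TGTGGT or, in Itga1, the ETS letters GGAAGT, and a match on the opposite strand appears as its reverse complement.
Ncr1: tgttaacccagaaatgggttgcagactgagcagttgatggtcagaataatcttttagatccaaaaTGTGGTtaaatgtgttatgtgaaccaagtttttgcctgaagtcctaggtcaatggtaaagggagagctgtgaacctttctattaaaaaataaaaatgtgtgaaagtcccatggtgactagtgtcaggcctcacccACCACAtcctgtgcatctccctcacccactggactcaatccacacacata
Gzma: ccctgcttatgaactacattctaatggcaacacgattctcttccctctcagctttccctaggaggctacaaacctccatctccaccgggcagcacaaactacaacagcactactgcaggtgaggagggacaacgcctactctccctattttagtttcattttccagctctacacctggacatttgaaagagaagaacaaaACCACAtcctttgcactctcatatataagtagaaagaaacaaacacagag
Cxcr6: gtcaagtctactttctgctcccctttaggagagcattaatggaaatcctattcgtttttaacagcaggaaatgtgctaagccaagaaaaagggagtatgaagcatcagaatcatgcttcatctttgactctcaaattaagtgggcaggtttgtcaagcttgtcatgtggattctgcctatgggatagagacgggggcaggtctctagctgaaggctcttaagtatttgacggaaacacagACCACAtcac
Itga1: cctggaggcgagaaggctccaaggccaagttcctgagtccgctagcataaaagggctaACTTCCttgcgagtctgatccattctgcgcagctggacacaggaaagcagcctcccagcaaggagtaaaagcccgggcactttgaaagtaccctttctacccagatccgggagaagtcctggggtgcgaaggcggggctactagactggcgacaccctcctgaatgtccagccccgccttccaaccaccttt

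The RUNX letters began 185 and 50 bases before the Ncr1 start, 50 bases before the Gzma start and 10 bases before the Cxcr6 start, and the ETS letters began 192 bases before the Itga1 start. The T-box core GGTGTGA, also searched on both strands, was in none of the 4 windows. Eomes, which also defines members and the split, is not shown, and its window held none of the RUNX, ETS or T-box letters. Of 32851 promoters of the same length, 14% held the RUNX letters, 19.7% the ETS letters and 3.33% the T-box core. These motifs did not overlap one another, and a match describes letters, not binding.

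Members made up 0.721% of kept barcodes in the library with suffix 1 (60 of 8320, exact binomial 95% interval 0.551 to 0.927) and 0.984% in the library with suffix 2 (46 of 4676, 0.721 to 1.31). All intervals cover counting error only. Eomes-positive cells were 28.3% of members (20 to 37.9), with 16 and 14 cells by library. Cxcr6-positive cells were 24.5% (16.7 to 33.8), with 16 and 10 cells. The remaining 47.2% (37.4 to 57.1) had neither mRNA, with 28 and 22 cells. The median depth was 3745 UMIs in Eomes-positive, 3828 in Cxcr6-positive and 3806 in the remaining cells, with 120493, 132981 and 229969 UMIs in all. The medians were close in the pool, but with suffix 1 they were 3689 and 4490 UMIs in Eomes-positive and Cxcr6-positive cells, and the deepest cells held 7047 and 27445 UMIs. Levels are given as CPM, the UMIs of a gene summed over the cells of a set per 1000000 UMIs of that set.

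The libraries stood apart in quality. The median mitochondrial share over all barcodes was 4.07% with suffix 1 and 41.3% with suffix 2, and 81 barcode sequences occurred in both, none of them in a member. Of 639 kept barcodes with at least 2 marker UMIs, 523 also had a Cd3 UMI and were left out by the rule. Free hepatocyte RNA was in every member: Alb, the albumin mRNA, was at 13009 CPM in members and 11736 CPM in 377 B cells with at least 2 Cd79a and no Cd3 UMIs, which serve as the background (median depth 3725 UMIs). In addition, 8 members carried RNA of another lineage. By dendritic cell markers they were 1 Eomes-positive cell with 40 UMIs, 2 Cxcr6-positive cells with 11 and 545 UMIs and 1 remaining cell with 104 UMIs. A further remaining cell had 61 endothelial UMIs, and 3 had 279, 297 and 466 Alb UMIs. The Cxcr6-positive cell with 545 dendritic UMIs was also the deepest member, with 27445 UMIs. Values without these 8 cells, an alternative chosen after seeing the data, are given beside many of the results.

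Ncr1, encoding NKp46, was detected in 100 of 106 members at 889 CPM, against 21.6 CPM in B cells, and Klrb1c, encoding NK1.1, in 101 of 106 at 718 CPM, against 5.16 CPM. The rule used both, so their presence follows from the choice of members. Gzma, which the rule did not use, was at 3636 CPM, with 71 of 106 cells positive, against 16.9 CPM in B cells and 13 of 377 cells. At the limit of the rule, the 3 members with exactly 2 marker UMIs had no Gzma UMI and 194 CPM of the granule protein mRNA Nkg7, and 47 barcodes with 1 marker UMI that met every other condition had 40 CPM of Gzma and 22.6 CPM of Nkg7. Cd8a and the T cell gene Cd6 were at 0 in members and the T cell receptor constant mRNA Trac at 1 UMI. Of 13 T cell markers 8 were detected in members, and their summed level in Cxcr6-positive cells was 869 and 1306 CPM by library, beside 76.1 and 91.4 CPM in B cells. All 5 markers of basophils and mast cells were at 0. Of 11 markers of ILC2 and ILC3, 6 were at 0 (Il1rl1, Il13, Il5, Areg, Il22 and Il17a) and 5 were detected, among them Gata3 at 72.4 CPM, Ncoa7 at 66.2 CPM, Hlf at 12.4 CPM and Il23r at 4.14 CPM. The summed level of the list was 124 to 256 CPM over the sets and libraries, beside 47.7 and 58.9 CPM in B cells.

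Of 4140 genes at 50 CPM or more in either subset, 399 were at least 2-fold higher in Eomes-positive cells (9.64%) and 347 in Cxcr6-positive cells (8.38%). A gene was counted when its ratio passed 2-fold both with 3 UMIs added to each sum and without them. In each library separately as well, 50 genes were higher in Eomes-positive cells (1.21%) and 77 in Cxcr6-positive cells (1.86%). Without the 8 cells with other RNA, 273 of 4410 genes were higher in Eomes-positive (6.19%) and 449 in Cxcr6-positive cells (10.2%), so the split between directions turned over. The named differences below are descriptions of 30 and 26 cells, and Eomes and Cxcr6 themselves are left out because they made the split.

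**Figure D1:**
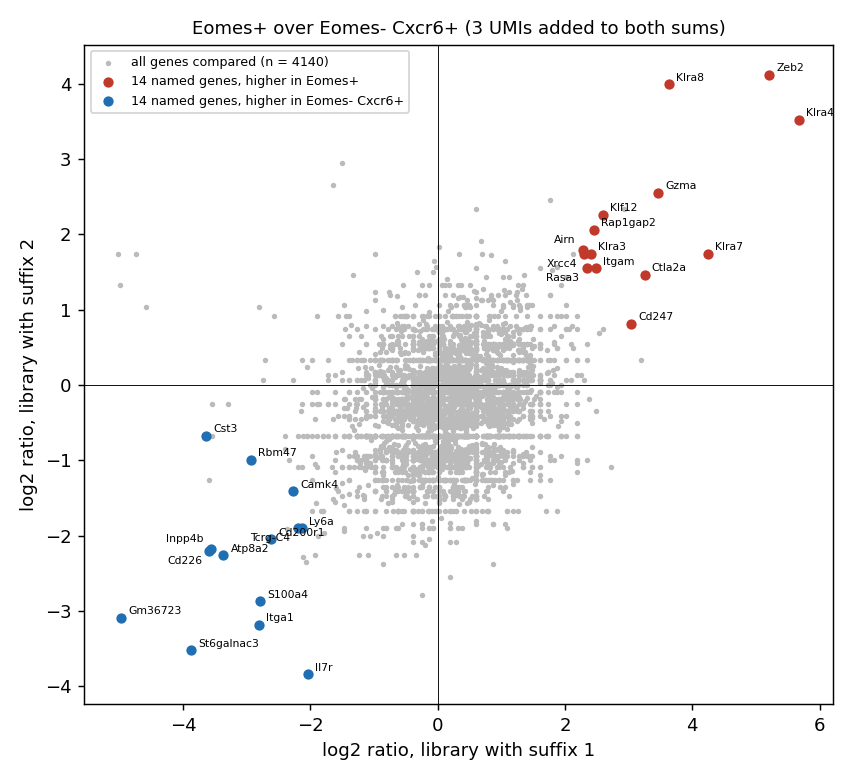
Log2 ratio of Eomes-positive over Cxcr6-positive CPM for 4140 genes, with 3 UMIs added to both sums, in the library with suffix 1 (x axis) and suffix 2 (y axis). Each point is 1 gene, and the 14 coloured genes in each direction stand in opposite corners of the plot.

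Killing genes differed in part. Gzma was 6382 CPM in Eomes-positive and 699 CPM in Cxcr6-positive cells, 9.13-fold (exact 95% interval of the ratio 7.35 to 11.4). By library it was 8084 and 4433 CPM in Eomes-positive and 706 and 682 CPM in Cxcr6-positive cells, so the lower Eomes-positive value lay above both Cxcr6-positive values. Per cell, Eomes-positive cells had 1 to 74 Gzma UMIs with a median of 23, and Cxcr6-positive cells 0 to 33 with a median of 0. One Cxcr6-positive cell held 33 of the 93 Gzma UMIs of its set, and without the 8 cells the levels were 6593 and 982 CPM.

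Prf1, which encodes the pore-forming protein perforin, followed Gzma. It was at 653 and 409.5 CPM by library in Eomes-positive cells and at 143 and 85.2 CPM in Cxcr6-positive cells, a pooled ratio of 4.22 (2.44 to 7.68). Nkg7, which encodes a granule membrane protein, was at 2534 and 1656 CPM against 931 and 1363 CPM. Its pooled ratio of 2.03 (1.65 to 2.52) fell to 1.64 without the 8 cells. Gzmb, encoding granzyme B, did not share the direction of Gzma: it was at 365 CPM in Eomes-positive and 451 CPM in Cxcr6-positive cells. Its ratio interval included 1 (0.824 to 1.87, higher in Cxcr6-positive). Without the 8 cells Gzmb was at 361 and 633 CPM, 1.75-fold higher in Cxcr6-positive cells (1.16 to 2.67). The death ligands also parted. Tnfsf10, encoding TRAIL, was at 15.5 and 89 CPM in Eomes-positive and 297 and 170.4 CPM in Cxcr6-positive cells, 5.29-fold higher in the latter (2.2 to 15.4), and Fasl was at 99.6 and 120.3 CPM. Of 14 granule and death ligand genes compared, 3 were at least 2-fold higher in Eomes-positive cells (Gzma, Prf1, Nkg7) and 1 in Cxcr6-positive cells (Tnfsf10), beside 9.64% and 8.38% of all genes, with a median log2 ratio of 0.26 beside 0.017 over all genes. These were 2 and 1 of 14 without the 8 cells.

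**Figure D2:**
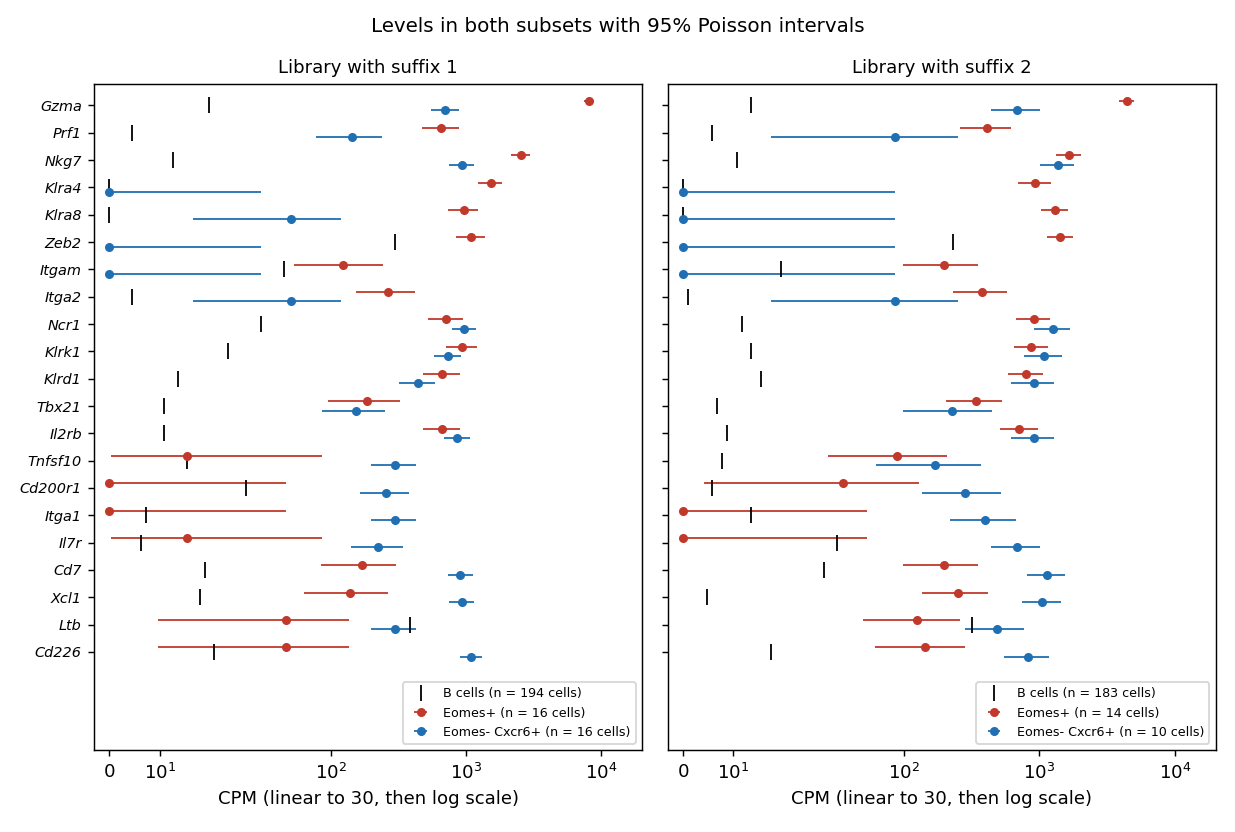
CPM of 21 genes in Eomes-positive (red) and Cxcr6-positive cells (blue) of each library, with exact 95% Poisson intervals (at 0 UMIs, the limit of 3 UMIs) and B cells as black ticks, on an axis that is linear to 30 CPM and logarithmic above. Gzma, Klra4, Klra8 and Zeb2 lay to the right in Eomes-positive cells of both libraries, and Cd7, Xcl1, Cd226 and Itga1 in Cxcr6-positive cells, while Ncr1, Klrk1, Tbx21 and Il2rb had overlapping intervals.

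Receptors of the Klra (Ly49) family, lectin-like receptors for class I MHC, were detected more often in Eomes-positive than in Cxcr6-positive cells. The remaining members lay between them. Klra4 (Ly49D), which activates, had 150 UMIs in 16 of 30 Eomes-positive cells (1245 CPM) and 0 UMIs in 26 Cxcr6-positive cells, at least 55.2-fold higher when 3 UMIs are allowed in that set. Klra8 (Ly49H), also activating, was at 964 and 1300 CPM by library in Eomes-positive cells and at 51.1 and 0 CPM in Cxcr6-positive cells, where 1 cell held all 5 UMIs. The inhibitory Klra7 (Ly49G) was at 731 and 231 CPM against 10.2 and 0 CPM, and its ratio of 66.2 rested on 1 UMI in Cxcr6-positive cells (11.4 to 2659). Klra3 (Ly49C) was at 199 against 7.52 CPM and Klra9 (Ly49I) at 432 against 120.3 CPM (3.59-fold, 2.02 to 6.73). Klra genes are near copies of one another, so the assignment of a UMI to 1 of them is uncertain, whereas their sum is less so.

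Counted per cell, 29 of 30 Eomes-positive cells (96.7%) had a UMI of at least 1 of 11 Klra genes, compared with 7 of 26 Cxcr6-positive cells (26.9%), 189 of 808 T cells with Cxcr6 (23.4%) and 13 of 377 B cells (3.45%). When each cell was thinned to 2000 UMIs the shares were 93.3%, 16%, 16.6% and 0.815%, with 0, 1, 2 and 9 shallower cells left out. Of the remaining 50 members, 30 had a Klra UMI (60%), and 55.1% after thinning, with 1 cell left out. At least 2 different Klra genes were detected in 25 Eomes-positive cells and 1 Cxcr6-positive cell, with means of 2.8 and 0.346 genes per cell. Since a UMI may be assigned to the wrong copy, these counts of different genes may be too high.

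Genes of the NK gene complex other than Klra differed in direction. The complex was read from Klrb1a to the last Klra gene (chr6:128609227-131247362 on GRCm38, 2638 kb), where 38 of 51 genes had a UMI in members. Summed over all of them it was at 8789 CPM in Eomes-positive cells, 5001 in Cxcr6-positive cells, 5914 in the remaining cells, 1922 in T cells with Cxcr6 and 1031 in B cells. The 5 Klra genes named above sit 466 to 745 kb to the right of Klre1. Near Klre1, Klrk1, encoding the activating receptor NKG2D, was at 905 and 827 CPM in the subsets, and Klrd1, encoding CD94, at 730.3 and 564 CPM. Klrc1, the NKG2A partner of CD94, was at 216 CPM in Eomes-positive and 368 CPM in Cxcr6-positive cells (1.71-fold, 1.04 to 2.86), and Klrc2 at 274 and 338 CPM. Klrb1b, an inhibitory receptor for a Clec2 ligand, was higher in Cxcr6-positive cells, at 419 and 539.6 CPM by library against 187 and 107 CPM, 3.02-fold (1.76 to 5.44).

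**Figure D3:**
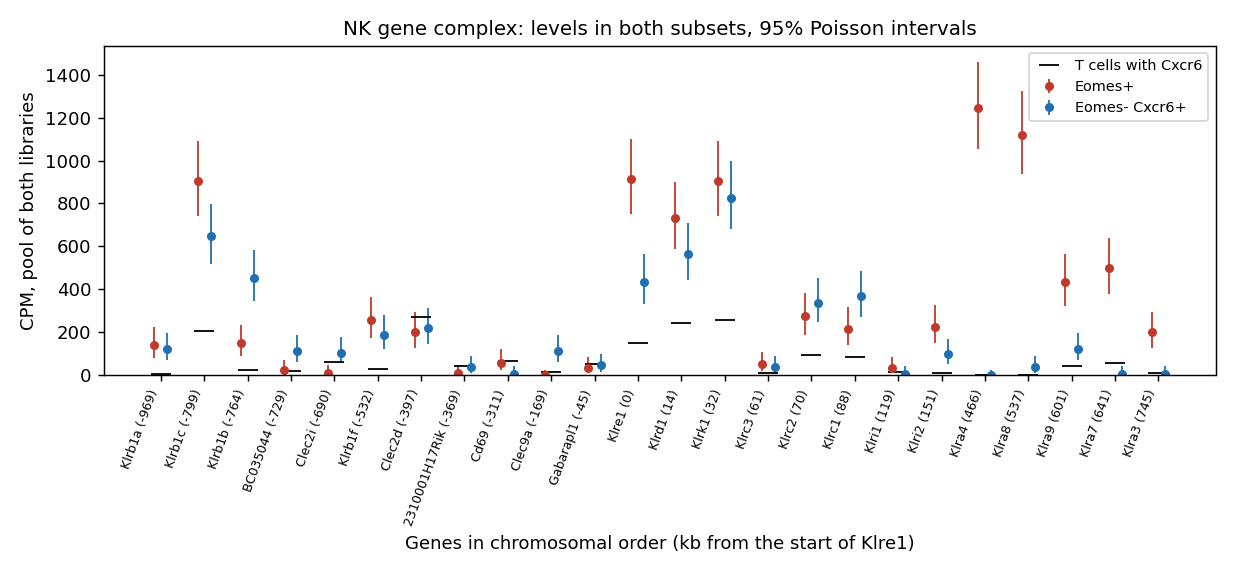
CPM with exact 95% Poisson intervals (y axis) of NK gene complex genes with at least 10 UMIs in members, in chromosomal order with the distance in kb from the start of Klre1 (x axis), in Eomes-positive (red) and Cxcr6-positive cells (blue), and in T cells with Cxcr6 (black bars). The Klra genes on the right were higher in Eomes-positive cells, at up to 1245 CPM, while Klrk1, Klrd1 and Klrc2 had overlapping intervals.

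Receptors outside the complex included activating receptors higher in Cxcr6-positive cells. Cd226, encoding DNAM-1, was at 1094 and 824 CPM by library in Cxcr6-positive cells and at 46.6 and 142 CPM in Eomes-positive cells, 11.2-fold (6.07 to 23). After thinning, it was detected in 80% of Cxcr6-positive, 10% of Eomes-positive and 1.63% of B cells. Cd160 was at 436 against 91.3 CPM (4.78-fold, 2.48 to 10.1). Ncr1 was at 1045 CPM in Cxcr6-positive and 805 CPM in Eomes-positive cells, with an interval of the ratio that reached 1 (0.995 to 1.7), and at 1309 and 846 CPM without the 8 cells (1.55-fold, 1.18 to 2.04). The rule counted Ncr1 and Eomes UMIs toward the same minimum, so Eomes-positive cells could enter with fewer Ncr1 UMIs. The Ncr1 ratio is therefore not independent of the choice of members. Of 15 activating receptors 4 were at least 2-fold higher in Eomes-positive (Klra4, Klra8, Klre1, Klri2) and 2 in Cxcr6-positive cells (Cd226, Cd160), beside 9.64% and 8.38% of all genes. Klre1 was used by the rule and fell from 2.09-fold to 1.67-fold without the 8 cells, and Klri2 from 2.29-fold to 1.61-fold, which left 2 of 16 receptors higher in each direction, beside 6.19% and 10.2% of all genes. Of 9 inhibitory receptors 4 were higher in Eomes-positive (Klra3, Klra7, Klra9, Klrg1) and 2 in Cxcr6-positive cells (Klrb1b and Havcr2, the latter 9 UMIs in 1 of the 8 cells), against 9.64% and 8.38% of all genes.

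Signalling adaptors showed a narrower difference. Tyrobp (DAP12) was at 2058 CPM in Eomes-positive and 1271 CPM in Cxcr6-positive cells, and Fcer1g (FcR gamma chain) at 1386 and 1542 CPM, so both adaptors were shared. Cd247 (CD3 zeta), which NK cells use with Fc receptors, was 9.66-fold higher in Eomes-positive cells (290.5 against 30.1 CPM, 3.45 to 37.4). Of 15 adaptors and kinases, Cd247, Syk and the SAP adaptor gene Sh2d1a were higher in Eomes-positive and Lcp2 (SLP-76) in Cxcr6-positive cells, at 271 against 74.7 CPM. These 3 and 1 of 15 stand beside 9.64% and 8.38% of all genes. None of the 3 genes higher in Eomes-positive cells passed in each library, and the log2 ratio of Syk was -0.022 with suffix 2 alone.

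Among transcription factors, Zeb2 encodes a zinc finger repressor needed for late NK maturation. It had 70 and 80 UMIs by library in 23 of 30 Eomes-positive cells (1088 and 1424 CPM), and 0 UMIs in all 26 Cxcr6-positive cells, at least 55.2-fold higher. The Eomes-positive cell with 40 dendritic UMIs held 24 of the 150 Zeb2 UMIs, and without the 8 cells the bound was 35.1-fold. This 0 lay below the 265 CPM of B cells, which use the gene themselves. Klf2, encoding a factor that drives expression of egress receptors, was at 404 and 569.7 CPM against 102 and 28.4 CPM (5.82-fold, 3.02 to 12.3), and Bach2, a repressor of effector genes, at 326 and 445 CPM against 92.1 and 85.2 CPM. Prdm1 (Blimp-1) was at 83 against 7.52 CPM, the latter 1 UMI (ratio 11, 1.57 to 479).

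Tbx21, encoding T-bet, on which both cell types depend, was at 257 and 173 CPM, with an interval of the ratio of 0.84 to 2.67. Id2, the factor shared by innate lymphoid cells, was at 589 and 865 CPM, and Tox at 324 and 624 CPM (1.93-fold higher in Cxcr6-positive, 1.3 to 2.9). Toward Cxcr6-positive cells, Ikzf2 (Helios) was at 158 against 33.2 CPM, Rora at 143 against 33.2 CPM and Ahr at 97.8 against 8.3 CPM. Ahr rested on 13 against 1 UMIs, and on 6 against 1 without the 8 cells (7.19-fold, 0.872 to 331). Bcl11b was at 60.2 CPM against 0, at least 2.42-fold, and Id3 was also counted but came from 1 cell. In all, 4 of 21 factors were at least 2-fold higher in Eomes-positive and 5 in Cxcr6-positive cells, beside 9.64% and 8.38% of all genes. Without the 8 cells these were 5 and 6 of 20. Zfp683 (Hobit), Tox2 and Hic1 were at 0 in the 106 members, which allows up to 6.21 CPM. Irf8, a factor of NK cells and of dendritic cells, was at 332 and 248 CPM, and at 344 and 52.8 CPM without the 8 cells.

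Genes of NK maturation and circulation leaned to Eomes-positive cells: 9 of 14 were at least 2-fold higher there, none in Cxcr6-positive cells, and 6 of the 9 were so in each library. Over all genes these shares were 9.64% and 1.21%. The median log2 ratio was 2.04, beside 0.017 over all genes. Itga2, encoding CD49b, the classical partner of CD49a in telling NK cells from ILC1, was at 264 and 374 CPM by library against 51.1 and 85.2 CPM (5.24-fold, 2.41 to 13). Itgam (CD11b) was at 158 CPM in Eomes-positive cells and at 0 in 26 Cxcr6-positive cells, as were S1pr5, a receptor for exit into blood, at 83 CPM, and the chymase gene Cma1 at 149 CPM. For each of these 3 genes, 0 of 26 cells, read as 3, allows up to 11.5% of cells with a UMI at this depth. It sets no limit on cells that express the gene, since after thinning they were detected in only 23.3%, 16.7% and 20% of Eomes-positive cells. Cd27, Emb and Spn did not pass 2-fold, with 74.7 and 82.7 CPM of Cd27 in the subsets. Ly6c2, encoding a Ly6C surface protein, was at 124 and 128 CPM, but 1 of the 8 cells with other RNA held all 17 UMIs of the Cxcr6-positive set. Without the 8 cells it had 15 against 0 UMIs, at least 4.18-fold higher in Eomes-positive cells, and 10 of 14 genes of the list were higher there.

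Genes of ILC1 and tissue residency leaned the other way, 16 of 20 being at least 2-fold higher in Cxcr6-positive cells, 10 of them in each library, and 1 (Cd69, with 7 against 1 UMIs) in Eomes-positive cells. Over all genes 8.38% were higher in Cxcr6-positive cells, and 1.86% in each library. The median log2 ratio was -1.90. Itga1 (CD49a) was at 297 and 398 CPM by library in Cxcr6-positive cells, in 13 of 26 cells, and at 0 in 30 Eomes-positive cells, at least 13-fold higher. No Eomes-positive cell of 30 had a Cxcr6 UMI either. Read as 3 cells, this allows up to 10% of cells with a UMI, and it sets no limit on cells that express the gene, since after thinning Cxcr6 was detected in only 36% of the Cxcr6-positive cells themselves. Il7r, the IL-7 receptor of most innate lymphoid cells, was at 225 and 682 CPM against 15.5 and 0 CPM. A single Cxcr6-positive cell with suffix 2 held 14 of the 46 Il7r UMIs of its set. Cd200r1, encoding an inhibitory receptor for CD200, was at 256 and 284 CPM against 0 and 35.6 CPM. Cd7, encoding an immunoglobulin-family surface protein of lymphocytes, was at 910.3 and 1136 CPM against 171 and 196 CPM (5.31-fold, 3.36 to 8.77), and after thinning it was detected in 88% and 20% of cells, 24.8% of T cells with Cxcr6 and 2.99% of B cells.

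Further genes of the list with the same direction were Cxcr3, the receptor for interferon-induced chemokines (165 against 16.6 CPM), the signalling regulator Rgs1 (218 against 24.9 CPM), Tmem176b (316 against 58.1 CPM) and Thy1 (150.4 against 33.2 CPM). Inpp4b, encoding a phosphoinositide phosphatase, was at 895 against 49.8 CPM, of which 1 cell held 49 of 119 UMIs, and at 697 against 35.3 CPM without the 8 cells. Itgae, encoding CD103, was counted from 7 UMIs in 2 cells. Entpd1 (CD39) was 135 against 49.8 CPM and turned to the opposite direction without the 8 cells. Without them 15 of 19 genes of the list were higher in Cxcr6-positive cells.

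Of 8 genes of cytokines and chemokines compared, 2 were at least 2-fold higher in each direction, beside 9.64% and 8.38% of all genes, and without the 8 cells 1 in Eomes-positive and 3 in Cxcr6-positive cells, beside 6.19% and 10.2%. Xcl1, encoding the chemokine lymphotactin, was at 931 and 1051 CPM in Cxcr6-positive cells, with 24 of 26 cells positive, and at 139.9 and 249 CPM in Eomes-positive cells, with 7 of 30, which is 5.04-fold (3.22 to 8.24). Ltb (lymphotoxin beta) was at 346 against 83 CPM, near the 354 CPM of B cells, which make it themselves. Ccl5 was at 17613 and 10576 CPM in Eomes-positive and 6454 and 8690 CPM in Cxcr6-positive cells, 2.03-fold pooled and 1.69-fold without the 8 cells. Ccl3 was at 83 against 7.52 CPM, with 1 UMI in the latter. Ifng, the signature cytokine of both cell types, had 3 and 8 UMIs in the subsets (24.9 and 60.2 CPM), too few to order them (ratio 2.42, 0.58 to 14.1).

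Receptors for cytokines were partly shared. Il2rb, the IL-2 and IL-15 receptor chain on which both cell types rely, was at 689 and 872 CPM, with an interval of 0.947 to 1.7. Without the 8 cells Il2rb was at 723 and 1087 CPM, 1.5-fold higher in Cxcr6-positive cells (1.11 to 2.04). The IL-18 receptor chains Il18r1 (407 against 150.4 CPM) and Il18rap (257 against 113 CPM) were higher in Eomes-positive cells, but without the 8 cells only at 1.96-fold and 2.05-fold, which no longer passed with 3 UMIs added. Il2ra (CD25) was at 82.7 CPM in Cxcr6-positive cells and 0 in Eomes-positive cells. Of 16 receptors 2 were higher in Eomes-positive and 5 in Cxcr6-positive cells (Il2ra, Il4ra, Il7r, Il21r and Tgfbr1), beside 9.64% and 8.38% of all genes, and without the 8 cells 1 and 4 of 16. Tgfbr1 had 39 of 48 UMIs in 1 cell, and its ratio turned over in the library with suffix 2. Of 4 chemokine receptors, Cxcr3 and Ccr9 were higher in Cxcr6-positive cells, beside 8.38% of all genes. Ccr9 had 11 UMIs in 2 cells and 0 without the 8 cells, which left 1 of 3 chemokine receptors.

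Osteopontin, encoded by Spp1, binds CD44 and several integrins, and the study followed it as a product of hepatocytes. Spp1 itself was low in members, at 118 and 29.3 CPM by library, beside 92.4 and 16.5 CPM in B cells, so it was near the background. Of its receptor genes, Itga4 was at 1026 and 677 CPM in Eomes-positive and 153 and 369 CPM in Cxcr6-positive cells (4.1-fold, 2.68 to 6.46) and Itgb1 at 539 against 233 CPM (2.31-fold, 1.49 to 3.67). Itgb1 no longer passed without the 8 cells, at 2.06-fold or 1.93-fold with 3 UMIs added. Itgav was higher in Cxcr6-positive cells (218 against 49.8 CPM), as was Itgb3 with 9 against 1 UMIs, and Cd44 was at 207 and 188 CPM.

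Other genes named by their ratio alone gave further detail. Toward Eomes-positive cells these were the zinc finger factor gene Klf12 (340.3 against 22.6 CPM), Rap1gap2 (266 against 15 CPM) and Rasa3 (149 against 0 CPM), both encoding GTPase-activating proteins for Ras-family proteins, the DNA repair gene Xrcc4 (191 against 7.52 CPM), Ctla2a (656 against 75.2 CPM) and the noncoding Airn (266 against 22.6 CPM), which is antisense to Igf2r. Toward Cxcr6-positive cells, the noncoding Gm36723 was at 1432 and 1278 CPM by library against 0 and 107 CPM (27.9-fold, 12.6 to 77.1), and St6galnac3, encoding a sialyltransferase, at 1105 and 937 CPM against 31.1 and 35.6 CPM (31.9-fold, 12.2 to 119). The lipid flippase gene Atp8a2 was at 399 against 8.3 CPM, S100a4 at 511 against 41.5 CPM, Tcrg-C4 at 165 against 0 CPM and the kinase gene Camk4 at 158 against 0 CPM.

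Some others in that direction had most of their UMIs in 1 cell. Cst3 had 212 of 233 UMIs in 1 cell and was at 169 against 141 CPM without the 8 cells. Rbm47 had 29 of 34 UMIs in 1 cell. Ly6a had 12 of 21 in 1 cell, and without the 8 cells it still passed, with 8 against 0 UMIs. Trbc1 and Trbc2, T cell receptor beta constant genes, were higher in Cxcr6-positive cells, at 436 against 174 CPM and 451 against 116 CPM, although members had no Cd3 UMI and the T cells with Cxcr6 had 966 CPM of Trbc2.

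The remaining 50 cells lacked both splitting mRNAs, and they fell along the same pattern. Gzma ranged from 0 to 70 UMIs with a median of 15.5. At least 5 Gzma UMIs were found in 28 of 30 Eomes-positive, 6 of 26 Cxcr6-positive and 30 of 50 remaining cells. The sum of Itga1, Il7r, Cd200r1, Cd7 and Tnfsf10 UMIs had medians of 1, 11 and 2 per cell. With limits chosen after seeing the data, 23 remaining cells had at least 5 Gzma UMIs and fewer than 3 UMIs of the 5 genes, 17 had fewer than 5 and at least 3, 7 were high in both and 3 in neither.

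**Figure D4:**
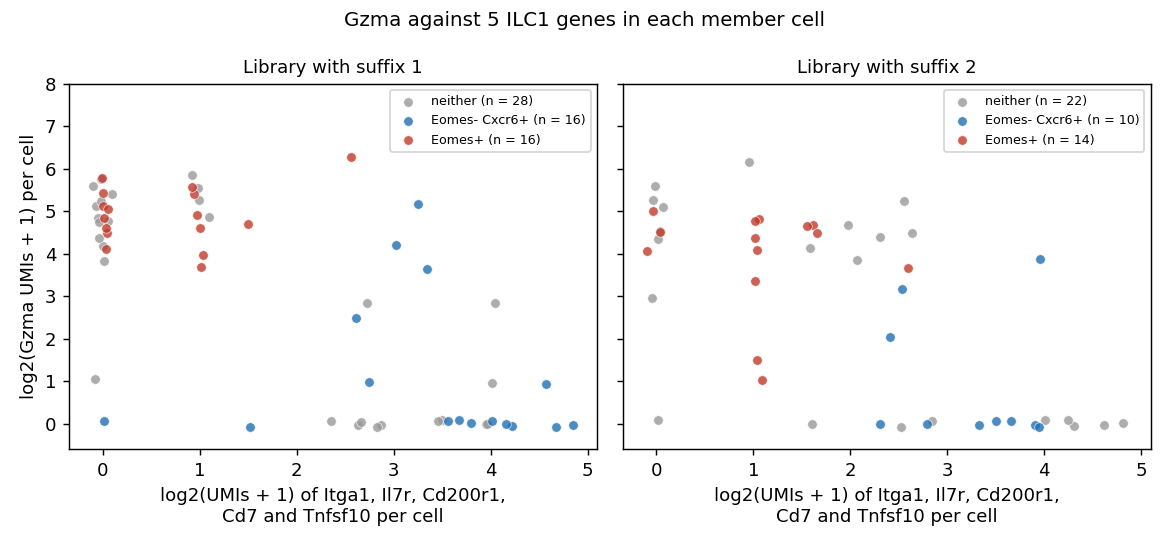
Log2(UMIs + 1) of Gzma (y axis) against the summed Itga1, Il7r, Cd200r1, Cd7 and Tnfsf10 (x axis) in each of 106 members, by library, with a small shift so that points do not hide one another. Most Eomes-positive cells (red) lay at the upper left, most Cxcr6-positive cells (blue) at the lower right, and the remaining cells (grey) in both places.

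Genes that neither the limits nor the split used followed the same order in these 40 cells. All 14 other genes named as higher in Eomes-positive cells were higher in the 23 Gzma-high cells, and all 12 other genes named as higher in Cxcr6-positive cells were higher in the 17 cells with the 5 genes. Without the 8 cells with other RNA these were 14 of 14 and 11 of 12. Over all 4140 genes, 48.4% were higher in the Gzma-high cells and 50.7% in the others. Zeb2 was at 1395 against 66.9 CPM, Klra8 at 1109 against 0 CPM and Klra4 at 525 against 0 CPM. In the opposite direction, St6galnac3 was at 83.5 against 1092 CPM, Gm36723 at 59.6 against 903 CPM, Inpp4b at 0 against 613 CPM and S100a4 at 59.6 against 579.5 CPM. Of the 399 genes higher in Eomes-positive cells 267 were higher in the Gzma-high cells and 131 lower, and of the 347 higher in Cxcr6-positive cells 227 were higher in the cells with the 5 genes and 89 lower.

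Compared with 808 T cells that had at least 2 Cd3 UMIs and 1 Cxcr6 UMI, 86 of 1811 genes at 100 CPM or more were at least 2-fold higher in members (4.75%) and 49 lower (2.71%). Klra4 and Klra8 were at 424 and 511 CPM in members and had 1 and 2 UMIs in all these T cells. Gzma was at 3636 against 319 CPM, and 725 CPM in CD8 T cells without Cxcr6. Other named genes higher in members were Klrb1a (161 against 7.35 CPM), Klri2 (161 against 8.61 CPM), the metalloprotease gene Adamts14 (101 against 5.46 CPM), Styk1, encoding a pseudokinase (153 against 11.3 CPM), the noncoding Gm43647 (120.0 against 10.1 CPM) and Klf12 (172 against 14.5 CPM). Tyrobp was at 1696 against 253 CPM and Fcer1g at 1423 against 220.2 CPM, although B cells had 232 CPM of Tyrobp.

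Lower in members were the T cell genes Trac (2.07 against 311 CPM), Themis (6.21 against 350.0 CPM), which acts in T cell receptor signalling, Gramd3 (4.14 against 327 CPM) and Cd40lg (0 against 101 CPM), besides Cd3d, Cd3e and Cd3g, which the rule removed. The haemoglobin genes Hbb-bs, Hbb-bt and Hba-a1 were also lower, at 86.9 against 2586 CPM for Hbb-bs, of which 1 T cell held 3353 of 12307 UMIs. After thinning, Itga1 was detected in 36% of Cxcr6-positive and 0% of Eomes-positive members, 31.5% of T cells with Cxcr6 and 1.09% of B cells, and Cd226 in 80%, 10%, 68.9% and 1.63%.

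**Figure D5:**
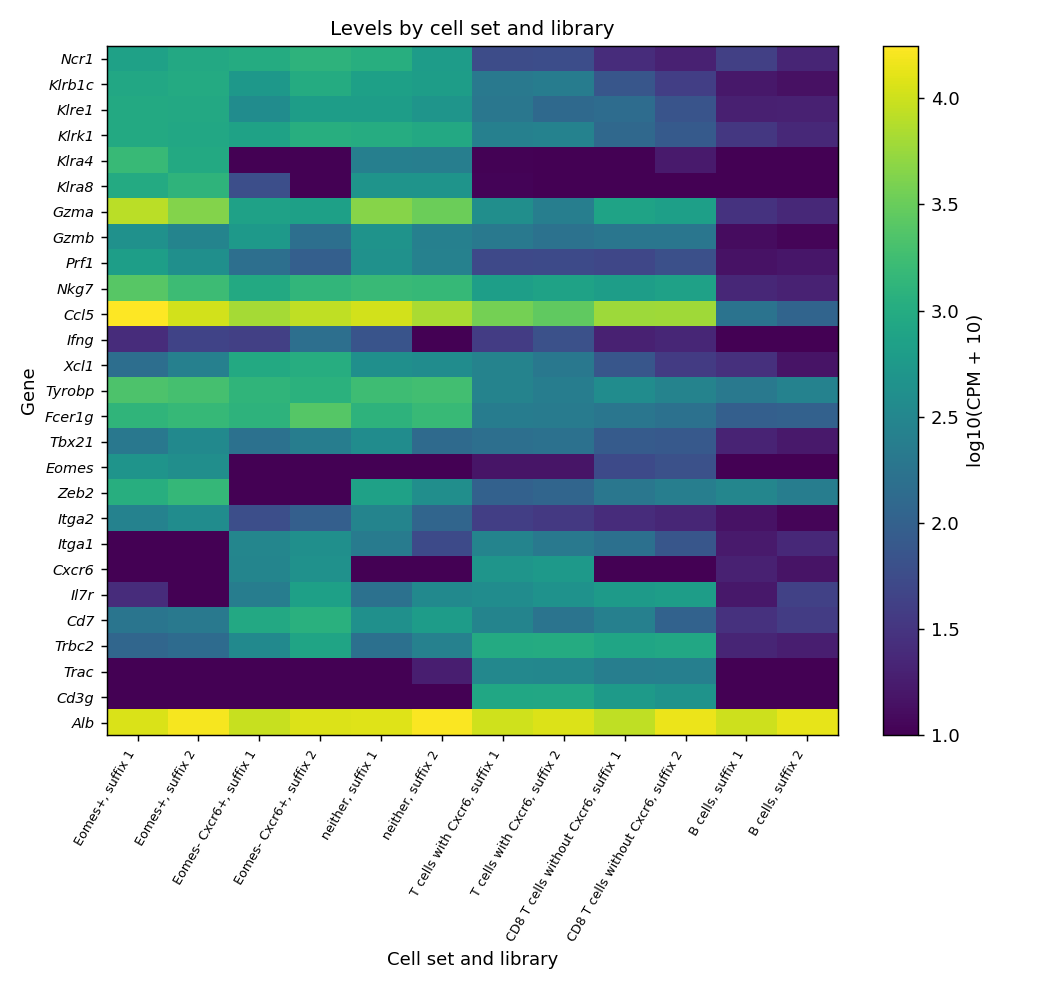
Log10(CPM + 10) of 27 genes (rows) in Eomes-positive, Cxcr6-positive and remaining members, T cells with Cxcr6, CD8 T cells without Cxcr6 and B cells, each by library (columns), with yellow for high and dark blue for low. Klra4, Klra8 and Gzma were high in Eomes-positive columns, Cd3g and Trac in T cell columns, and Alb, the background, was high in every column.

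Members were also compared between the unassigned libraries. Of 462 genes at 100 CPM or more and at least 2 times the B cell level of the library where they were higher, 14 were at least 2-fold higher with suffix 2 (3.03%) and 32 with suffix 1 (6.93%). With suffix 2, Emb was at 244 against 89.7 CPM, Ms4a6b at 156 against 61 CPM, Irak2 at 122 against 39.5 CPM and Npm3 at 137 against 39.5 CPM, while Ube2c (22 against 0 UMIs) came from 1 cell and Pid1 had 34 of 35 UMIs in 1 cell. With suffix 1, Cma1 was at 147 against 29.3 CPM, Rbpj at 133 against 24.4 CPM and Camk4 at 104 against 24.4 CPM. Cadm1 had 49 of 51 UMIs in 1 cell and Fmnl2 41 of 46. Gzma was at 3991 CPM with suffix 1 and 3154 CPM with suffix 2. Whether genotype, animal, mitochondrial share or capture moved with these values cannot be told apart, since each library is 1 sample.

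The remaining gene lists are read against the 9.64% and 8.38% of all genes higher in Eomes-positive and Cxcr6-positive cells. Of 6 immediate early genes compared 0 passed 2-fold, and Fos, Fosb, Atf3 and Hspa1a were at 0 in members. Of 7 interferon response genes 3 were higher in Cxcr6-positive cells, among them Ifi27l2a (143 against 16.6 CPM) and Ly6a, and 1 in Eomes-positive cells (Ifit1). Without the 8 cells Ifi27l2a had 1 UMI in either subset, and 2 of 5 genes of the list were higher in Cxcr6-positive cells. Of 3 proliferation genes Stmn1 was higher in Eomes-positive cells, with 9 against 0 UMIs. T cell markers had 1 of 4 higher in Eomes-positive (Trdc) and 2 in Cxcr6-positive cells, and B cell markers 1 of 2 (Ighm, 173 against 58.1 CPM) in Cxcr6-positive cells. Without the 8 cells Ighm was at 106 against 61.7 CPM and 0 of 2 B cell markers passed. Dendritic cell markers were higher in Cxcr6-positive cells for 5 of 5 genes, and 0 genes of that list reached 50 CPM without the 8 cells. None of 3 monocyte and neutrophil, 10 hepatocyte, 1 endothelial, 1 erythroid and 2 ILC2 and ILC3 genes passed 2-fold, and no macrophage gene reached 50 CPM, but Ly6c2 of the monocyte list passed without the 8 cells, as given above.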

How the data were processed

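The authors deposited 1 matrix of whole-number UMI counts per gene and barcode from 10x Genomics 3' v3.1 libraries, which its header credits to Cell Ranger 7.1.0. The submitters' processing notes also name bcl2fastq 2.20.0, STAR 2.7.2a and mm10. UMI counts collapse PCR copies. The sources used here do not say if intronic reads were counted or if the libraries were thinned to like depth. Gene positions are from GENCODE on GRCm38.

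The members and gene lists were chosen with earlier results of these data known. UMIs were summed over cells and divided by the set's total (CPM). Intervals are exact Poisson for levels and exact binomial (Clopper-Pearson) for shares and ratios, at 95%. A count of 0 was read as up to 3 UMIs, or 3 cells for a share. Genes at 50 CPM or more in either subset were compared. A gene was counted as past 2-fold only where it was so with 3 UMIs added to each sum and without them, because added UMIs alone give a ratio when totals differ. Mitochondrial and ribosomal protein genes were left out of named genes. Beside the listed genes, the text names the 15 genes with the largest ratio in each direction between the subsets that also passed 1.5-fold in both libraries, the 10 in each direction against T cells with Cxcr6 (100 CPM, also past 1.5-fold in both libraries), the 10 in each direction between libraries, and NK gene complex genes with at least 10 UMIs. T cells with Cxcr6, CD8 T cells without Cxcr6 and B cells were chosen by UMI rules of the same kind. A few genes that these rules select are not reported here.

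Shares of positive cells were also computed after thinning each cell to 2000 UMIs. Doublets were kept: no caller was run, and the 8 members with RNA of another lineage (at least 10 dendritic or endothelial UMIs, or at least 200 Alb UMIs) were taken out in an alternative added after seeing the data. Alternatives for the UMI minimum, mitochondrial limit, marker minimum, added UMIs, CPM minimum and split were computed. The code was tested on simulated data. Python 3.11.15, numpy 2.4.6, scipy 1.17.1, pandas 2.3.3 and matplotlib 3.10.9 were used.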

Additional observations from a re-analysis of the deposited data

Results flagged for a closer look

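A low level of NK cell genes was found in barcodes outside the comparisons. Of 13753 barcodes with at least 1000 UMIs but over 25% mitochondrial UMIs, 8 met the marker rule. Gzma was at 114 CPM in them (11 UMIs, exact 95% interval 56.8 to 204), and Nkg7 at 217 CPM. This Gzma level lay above 16.9 CPM in B cells but below 3636 CPM in members and 319 CPM in T cells with Cxcr6. Alb was at 26641 CPM in these barcodes, beside 11736 CPM in B cells. Of 4713 barcodes with at least 500 but fewer than 1000 UMIs, 0 met the marker rule.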

How the results depend on the processing

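No paired analysis was possible because no label ties a library to a sample and no test was run. Over the alternatives, 96 of 117 shares, 26 of 38 counts of genes and 1763 of 1864 log2 ratios of named or listed genes stayed close to the reported value. So did 27 of 42 CPM values, although 10 of 21 moved with the mean of per-cell CPM. Close meant inside its 95% counting interval, or within 1.5-fold for counts of genes. By this limit the counts without the 8 cells were close, although the split between directions turned over. Changing the CPM minimum could not alter a ratio, and a minimum of 500 UMIs added no member. All 101 ratios at each of these settings therefore had to stay close. Members were 0.516% of barcodes with suffix 1, and 0.599% pooled, at a minimum of 500 UMIs, 1.38%, 1.39% and 1.39% (suffix 1, suffix 2, pooled) at 2000 UMIs, 0.572% with suffix 2 and 0.576% pooled at a mitochondrial limit of 50%, and 1.08%, 1.35% and 1.18% with at least 1 marker UMI. The subset shares fell with stricter detection. Asking for 2 UMIs of the splitting gene gave Eomes-positive shares of 10.9% with suffix 2 and 14.2% pooled, and Cxcr6-positive shares of 10%, 8.7% and 9.43%. Splitting on cells thinned to 1000 UMIs gave 13.3%, 8.7% and 11.3% Eomes-positive and 11.7%, 10.9% and 11.3% Cxcr6-positive. The 399 genes higher in Eomes-positive cells became 660 with no CPM minimum and 73 at 200 CPM. They were 749 with suffix 1 alone, 124 with suffix 2 alone and 264 at a mitochondrial limit of 10%. With at least 1 marker UMI they were 256, and with 2 UMIs for the split 192. Taking out the deepest 5% of members together with cells with B cell or neutrophil UMIs gave 242. The 347 higher in Cxcr6-positive cells became 62 at 200 CPM, 538 with 1 UMI added, 827 with suffix 2 alone and 709 with 2 UMIs for the split. Ratios that changed direction (log2, Eomes-positive over Cxcr6-positive) were Cst3 at 0.18 with the thinned split and Id3 at 0.10 for the mean of per-cell CPM. Others were Il18r1 at -0.078 with the thinned split, and Tgfbr1 at 0.91 and Syk at -0.022 with suffix 2 alone. Entpd1 also did, at 0.38 with a mitochondrial limit of 10%, 0.56 with 2 UMIs for the split and 0.325 without the 8 cells. It was at 0.24 when the deepest members and cells with B cell or neutrophil UMIs were taken out together. The cause was not tested. With 30 and 26 cells, genes under about 50 CPM rested on a few UMIs.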
